A study of Homo sapiens with 28 samples.

Results

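The 39 genes described here are interferon-stimulated genes, a fixed list of genes whose transcription interferon is known to raise. They were chosen by symbol from the 13897 gene names that the RNA tables of the series hold. Earlier results of these data were known when the list was drawn up. Each of the 39 was listed in at least 1 table. RNA was measured in 20 libraries of H2009 and H596, established human lines that the labels give as lung adenocarcinoma of wild-type genotype. RUVBL1, an AAA+ ATPase that works with RUVBL2 in complexes that assemble other proteins and remodel chromatin, was depleted by siRNA and compared with a non-targeting siRNA (siNT), after 2.5 days in H2009 and 3 days in H596. In the other groups cells received compound B or compound C, each at 100 nM for 24 h, or were left untreated; no vehicle control is described in the sources used here, and neither compound's structure or target is given there. Each of the 10 groups had 2 libraries, numbered 1 and 2. The labels do not state whether these came from separate cultures, so a p-value reflects the spread of these libraries, which may be technical.

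Interferons are secreted proteins that a cell makes when its sensors detect viral nucleic acid, and type I and type III interferons act through receptors that activate the kinases JAK1 and TYK2. These phosphorylate STAT2, which acts with IRF9 in a complex named ISGF3 that binds the interferon-stimulated response element (ISRE) in promoters. IRF1 and IRF7, themselves induced, bind related elements, and a further promoter element is the gamma-activated site (GAS). The products restrict viruses: IFIT proteins bind viral RNA, IFITM proteins and tetherin (BST2) act at membranes, the OAS enzymes activate RNase L, MX GTPases trap viral components, and RIG-I (DDX58) and MDA5 (IFIH1) sense RNA. ISG15 is a ubiquitin-like modifier attached by HERC5 and removed by USP18, which also limits receptor signalling. In epithelial cancer cells part of this set is often expressed without added interferon.

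The promoters of the genes that moved furthest with the siRNA are printed first, because the ISRE is known to lie in such regions. They are the 250 bases before the annotated start of the 3 members with the highest log2 change in H596 (IFI27, IFI6 and XAF1) and the 3 with the lowest in H2009 (IFI44, IFIT3 and IFIT1). Sequences and positions are those of RefSeq on GRCh38.p14, given 5′ to 3′ on the strand of the gene, whereas the expression values were made on hg19. Capitals mark matches to the ISRE core on either strand, here 2 copies of GAAA separated by any 2 bases. The windows lie upstream of the first exon at chr14:94110486-94110735 (IFI27, plus strand), chr1:27672193-27672442 (IFI6, minus), chr17:6755796-6756045 (XAF1, plus), chr1:78649539-78649788 (IFI44, plus), chr10:89327747-89327996 (IFIT3, plus) and chr10:89392373-89392622 (IFIT1, plus).
IFI27: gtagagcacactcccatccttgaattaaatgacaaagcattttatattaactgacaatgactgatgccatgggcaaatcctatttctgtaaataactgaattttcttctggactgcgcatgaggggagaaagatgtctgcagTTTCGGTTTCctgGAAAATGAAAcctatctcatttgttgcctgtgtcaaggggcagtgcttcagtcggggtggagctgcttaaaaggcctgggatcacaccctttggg
IFI6: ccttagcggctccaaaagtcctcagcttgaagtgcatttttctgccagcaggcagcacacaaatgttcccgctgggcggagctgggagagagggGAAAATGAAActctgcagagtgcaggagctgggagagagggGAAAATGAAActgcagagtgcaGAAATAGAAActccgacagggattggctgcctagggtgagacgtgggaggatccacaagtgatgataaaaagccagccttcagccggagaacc
XAF1: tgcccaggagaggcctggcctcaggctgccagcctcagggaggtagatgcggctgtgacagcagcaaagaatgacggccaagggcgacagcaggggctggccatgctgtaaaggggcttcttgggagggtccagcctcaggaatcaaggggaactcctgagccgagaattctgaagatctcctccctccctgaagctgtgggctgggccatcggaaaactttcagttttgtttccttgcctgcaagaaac
IFI44: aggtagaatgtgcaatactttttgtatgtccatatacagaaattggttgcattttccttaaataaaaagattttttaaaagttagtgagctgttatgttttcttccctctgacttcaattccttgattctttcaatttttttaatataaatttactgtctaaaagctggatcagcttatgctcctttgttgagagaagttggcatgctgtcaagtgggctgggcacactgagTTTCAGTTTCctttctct
IFIT3: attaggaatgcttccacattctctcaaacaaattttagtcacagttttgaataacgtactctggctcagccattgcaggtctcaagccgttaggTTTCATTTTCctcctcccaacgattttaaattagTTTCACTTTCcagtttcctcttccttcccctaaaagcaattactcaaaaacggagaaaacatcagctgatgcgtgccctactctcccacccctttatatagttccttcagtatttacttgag
IFIT1: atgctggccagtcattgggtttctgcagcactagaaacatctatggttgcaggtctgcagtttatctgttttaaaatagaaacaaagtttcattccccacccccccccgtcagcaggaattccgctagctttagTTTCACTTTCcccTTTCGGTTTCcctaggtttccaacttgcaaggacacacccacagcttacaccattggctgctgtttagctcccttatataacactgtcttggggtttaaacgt

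IFI6 held 3 matches, IFI27, IFIT3 and IFIT1 held 2 each, IFI44 held 1 and XAF1 held 0. The IFI44 match began 18 bases before the start, and those of IFIT1 began 116 and 103 bases before it. RefSeq promoters were matched for 32 of the 39 genes; IFIT2, IFITM2, OAS2, OASL, MX2, USP18 and IRF7 had no entry. The ISRE core was found in 19 of the 32 (59.4%), against 3.02% of 35116 promoters of the same length, and more than 1 match in 13 (40.6%), against 0.225% of all promoters. The GAS pattern TTCNNNGAA was found in 10 of 32, against 6.57% of all promoters, and in 3 of the 32 a GAS match overlapped an ISRE match. A match says only that these letters lie in the window.

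Values are FPKM (fragments scaled to transcript length and to the mapped fragments of the library), as the authors deposited them, so levels of different genes can be set side by side per length, but the read depth behind them is unknown. The table for the siRNA in H2009 listed 29 of the 39 genes, that for the siRNA in H596 listed 38, and that for the compounds in both lines listed 36. A gene was tested where its mean was at least 1 FPKM over the libraries of a table (for the compounds, over either line's 6 libraries), which held for 25, 38 and 33 of them. Without a row in the H2009 siRNA table, and not analysed there, were OAS1, OAS2, OAS3, MX1, MX2, RSAD2, CMPK2, SAMD9L, IFI27 and XAF1; EPSTI1 had no row in the H596 siRNA table, and MX2, IFI44L and XAF1 had none in the compound table. Differences are log2 changes of FPKM + 1 fitted with limma across all genes of a table and adjusted by Benjamini-Hochberg. They are given with an SE from the unpaired fit, which has 2 libraries per group, and they understate the change of genes with low FPKM. Libraries with the same number deviated together across the whole series, so a paired fit, with the number as a block, is given wherever it changes a call. For each siRNA comparison the paired fit leaves 1 residual degree of freedom per gene, so its p-values lean on the spread pooled across genes. The log2 change is the same in both fits.

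RUVBL1 itself was at 1.75 and 1.11 FPKM with its siRNA in H2009, against 87.8 and 64.3 FPKM with siNT, and at 2.26 and 2.52 FPKM in H596, against 112 and 123 FPKM (paired adjusted p = 1.95e-07 and 2.25e-08). All 6 epithelial markers looked for were listed in all tables, summing to between 940 and 5947 FPKM per library. Of 9 immune cell markers only CD68 had a row, at 15.8 to 22.8 FPKM in the siRNA libraries of H596. Of 8 fibroblast and endothelial markers, 5 had a row with the siRNA in H596, summing to 9.43 to 12.8 FPKM per library. With the siRNA in H2009 1 had a row, and with the compounds 2, summing to at most 2.18 FPKM. Of the 6 epithelial markers, 3 were called lower with the siRNA in H2009 and 5 in H596, all by pairing alone, where 27% and 26.6% of all genes were; in untreated cells 4 were called lower in H596, where 19.1% of all genes were. The part of this in the changes of the interferon-stimulated genes was not tested.

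In untreated cells the 2 lines differed in which of these genes they expressed. The OAS family, which makes the short oligoadenylates that switch on RNase L, stood furthest apart. OAS1 was at 0.0249 and 0.104 FPKM in H2009 and at 19.4 and 13.0 FPKM in H596; OAS3 was at 0.537 and 0.510 against 27.5 and 18.7 FPKM. OAS2 was listed at 0 in both untreated H2009 libraries and reached 10.0 and 6.18 FPKM in H596. MX1 was at 0.0338 and 0.0850 FPKM in H2009 and at 2.93 and 1.97 FPKM in H596. H2009 thus carried almost no RNA of these antiviral effectors, and the libraries of the lines were far apart.

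A further group was present in both lines and higher in H596. SAMD9, a growth-restricting antiviral factor, was at 5.24 and 13.8 FPKM in H2009 and 55.1 and 112 FPKM in H596, a log2 difference of 3.05 (SE 0.57, adjusted p = 0.00207). IFIT2 differed by 2.44 (SE 0.22, adjusted p = 1.57e-05), PARP9 by 2.31, OASL by 2.10, PARP14 by 1.92, IFITM1 by 1.29, IRF1 by 1.15 and ISG20 by 0.79. Lower in H596 were HERC5, the ISG15 ligase, by -1.27 (SE 0.19, adjusted p = 0.000496), USP18 by -0.93 (SE 0.21, adjusted p = 0.00589) and ISG15 by -0.81 (SE 0.25, adjusted p = 0.0265). EPSTI1 was at 2.56 and 2.85 FPKM in H2009 and at 0.0258 and 0 FPKM in H596. IFI44, IFIT3, BST2, IFI35, IFIT5, DDX58, IRF9 and IFITM3 did not pass this test in either fit. IFI44, a cytoplasmic protein of unsettled biochemical role, was among the higher members in both lines, at 61.5 and 78.3 FPKM in H2009 and 48.8 and 64.5 FPKM in H596, and these values overlapped.

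Of the 33 members tested between the untreated lines, 13 were called higher and 4 lower in H596, where 24.1% and 19.1% of all 12781 genes were so called. CMPK2, EPSTI1, MX1, OAS1, OAS2 and OAS3 reached the minimum level in 1 line only and so had to differ. Among the 27 members above it in both lines, 8 were higher and 3 lower. The share among all genes above it in both lines was not worked out, so these counts show no excess of members. Pairing gave 17 higher and 7 lower (36.5% and 29.6% of all genes), and with quantile normalization added 13 and 10 (32.3% and 34.6%). In 18 members both H596 libraries lay above both of H2009 and in 8 below, against 37.8% and 31.4% of all genes. That scaling moved the median difference over all genes from 0.08 to -0.04, and the median of the members from 0.36 to 0.17. In all, 8 of the 36 listed members were under 1 FPKM in untreated H2009 and 4 in untreated H596, and 7 and 16 stood at 10 FPKM or more. The member median was 4.71 FPKM in H2009 and 8.10 FPKM in H596, against 8.31 and 9.38 FPKM over all genes.

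**Figure D1:**
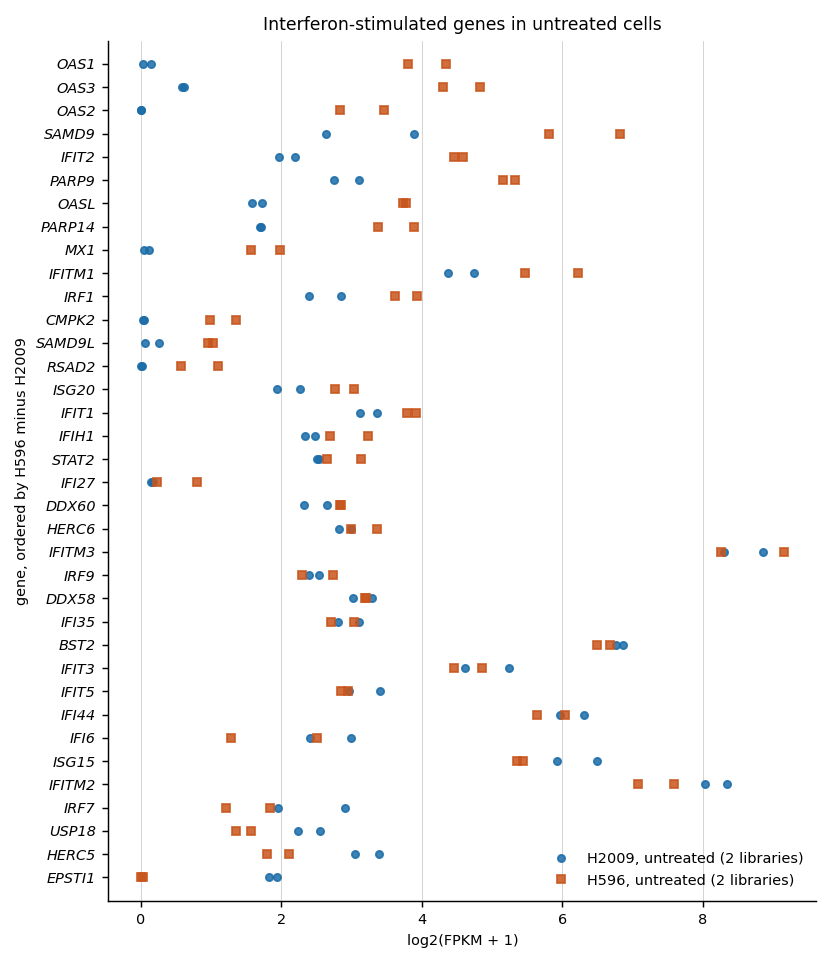
Level of each listed gene in the untreated libraries on the log2(FPKM + 1) axis, with circles for H2009 and squares for H596 and 1 point per library (2 per line). The OAS genes, SAMD9 and IFIT2 at the top lie higher in H596, EPSTI1 and HERC5 at the bottom lie higher in H2009, and IFI44 and IFIT3 overlap between the lines.

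In H2009, most of the tested members were lower with the RUVBL1 siRNA than with siNT. IFI44 was at 36.7 and 65.6 FPKM with siNT and at 9.95 and 16.0 FPKM with the RUVBL1 siRNA, and the groups did not overlap. Its log2 change was -1.88 (SE 0.44), with -1.78 and -1.97 within libraries 1 and 2. IFIT3 was at 12.6 and 17.2 FPKM with siNT and at 4.59 and 5.02 FPKM with the RUVBL1 siRNA, a change of -1.44 (SE 0.32). IFIT1 was at 3.14 and 4.38 FPKM and then at 0.807 and 0.851 FPKM, a change of -1.37 (SE 0.27). Of the 4 IFIT genes, whose products bind viral RNA, IFIT1 and IFIT2 reached the minimum level only through the siNT libraries. They are therefore not counted here. IFIT3 and IFIT5 had every library with the RUVBL1 siRNA below both siNT libraries, as had 18.9% of all genes.

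The same held for several genes of other roles. DDX60, a helicase that assists RNA sensing, was at 3.78 and 6.71 FPKM with siNT and at 1.21 and 1.97 FPKM with the RUVBL1 siRNA, a log2 change of -1.24 (SE 0.37). USP18 was at 5.41 and 3.09 FPKM and then at 2.36 and 1.14 FPKM, a change of -0.93 (SE 0.40), equal within both library numbers. IFI35 was at 3.86 and 3.55 FPKM and then at 1.96 and 1.15 FPKM, a change of -0.90 (SE 0.30). BST2, or tetherin, which holds budding virus on the cell surface, was at 68.5 and 59.1 FPKM and then at 42.8 and 33.0 FPKM, a change of -0.74 (SE 0.31). IFIT2, at 1.49 and 2.76 FPKM with siNT and 0.708 and 1.20 FPKM with the RUVBL1 siRNA, changed by -0.66 (SE 0.33). In each of these the 2 groups were separate, though IFIT2 reached the minimum level only through the siNT libraries.

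The unpaired fit called 0 of the 25 tested members and 0% of 11223 genes in either direction; 5 members and 532 genes had p under 0.05 before adjustment, and it did not call RUVBL1 either (adjusted p = 0.56). With pairing, 13 members were called lower and 1 higher, against 27% and 15.4% of all genes. The adjusted p in the paired fit was 7.8e-05 for IFI44, 0.000219 for IFIT3 and 0.000403 for DDX60. For USP18, IFI35 and BST2 it was 0.000925, 0.00174 and 0.000949. IFIT1 and IFIT2 were called lower as well. They reached the minimum level only through the siNT libraries, so their adjusted p is not given. The others called lower were IFIT5 (-0.66), HERC6 (-0.52), EPSTI1 (-0.50), IFI6 (-0.43) and IFIH1 (-0.42). IRF9 was the one called higher, at 0.52 (SE 0.44, paired adjusted p = 0.0248). With quantile normalization added, 13 were called lower and 5 higher (25.3% and 26% of all genes); the additional ones were IRF1, IFITM1, DDX58 and PARP14, at 0.43, 0.27, 0.28 and 0.29.

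By libraries alone, 13 members were lower without overlap and 1 was higher, where this held for 18.9% and 12.1% of all genes. The member median was -0.42 against -0.08 over all genes. Of the 25 changes 19 were negative and 6 positive, where 42.4% of all genes had positive changes. IFIT1 and IFIT2 reached the minimum level only through the siNT libraries. Among the 23 members above it in both groups the median was -0.30, and the paired fit called 11 lower and 1 higher. The share among all genes above it in both groups was not worked out. Members with changes near 0 that did not pass were ISG15 (-0.15), PARP9 (-0.24), HERC5 (-0.27), STAT2 (-0.30), SAMD9 (0.20), IFITM2 (-0.29) and IFITM3 (-0.28). IFITM2 and IFITM3 are near-identical copies whose reads can be split, so their values are uncertain. Listed but too low for the test were OASL, IRF7, ISG20 and IFI44L, at most 1.34 FPKM in any library.

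In H596 the same siRNA went with higher levels of most of these genes. IFI27, a mitochondrial protein used as a marker of interferon exposure, was at 37.2 and 12.4 FPKM with siNT and at 172 and 68.7 FPKM with the RUVBL1 siRNA, a log2 change of 2.28 (SE 0.72). IFI6, which protects cells from flavivirus replication, was at 119 and 48.8 FPKM and then at 453 and 169 FPKM, a change of 1.84 (SE 0.69). In both genes library 1 stood above library 2 in each group, and the lower RUVBL1 siRNA library still exceeded the higher siNT library.

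XAF1, an interferon-induced antagonist of XIAP, was at 5.70 and 7.0 FPKM with siNT and at 23.4 and 22.8 FPKM with the RUVBL1 siRNA, a log2 change of 1.72 (SE 0.23). IFI44L was at 8.73 and 11.8 FPKM and then at 30.9 and 37.7 FPKM, a change of 1.66 (SE 0.27). In both genes the groups were far apart.

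MX1, a GTPase that blocks influenza virus, was at 69.9 and 58.8 FPKM with siNT and at 160 and 106 FPKM with the RUVBL1 siRNA, a log2 change of 1.01 (SE 0.30). MX2, its relative that acts on HIV, was at 3.43 and 2.48 FPKM and then at 8.32 and 5.43 FPKM, a change of 0.98 (SE 0.29). OAS1 was at 61.7 and 32.4 FPKM and then at 113 and 63.5 FPKM, a change of 0.90 (SE 0.47). HERC6 was at 18.5 and 17.5 FPKM and then at 36.6 and 30.1 FPKM, a change of 0.85 (SE 0.23). In all 4 genes both libraries with the RUVBL1 siRNA lay above both siNT libraries.

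The unpaired fit again called 0 of the 38 tested members and 0% of 12004 genes in either direction; 7 members and 137 genes had p under 0.05 before adjustment. Pairing gave 29 members higher and 2 lower, against 19.8% and 26.6% of all genes, and with quantile normalization added 32 and 1 (22.1% and 22.6%). The paired adjusted p was 1.01e-05 for IFI27, 1.04e-05 for IFI6, 4.87e-05 for XAF1, 1.34e-05 for IFI44L, 0.000244 for MX1, 0.000162 for MX2, 5.09e-05 for OAS1 and 0.000153 for HERC6. By libraries alone 19 members were higher without overlap and 2 lower, against 9% and 8.64% of all genes. The member median was 0.42 against -0.01 over all genes, and 34 of the 38 changes were positive, against 47.2% of all genes. In the unpaired fit without library 2 of the RUVBL1 siRNA, or without library 1 of siNT, IFI27 was called higher (2.93, adjusted p = 0.00502, and 3.04, adjusted p = 0.00262). Without the other library of either group its change was 1.62 and 1.52, not called (adjusted p = 1 in both). In these 4 fits the lone library is assumed to vary like the other group.

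By role, both MX genes, all 3 RNA sensors, both SAMD9 genes, both PARP genes, the IFI genes 6, 27, 35, 44 and 44L, and XAF1 were called higher in the paired fit. OAS2 changed by 0.84 and OAS3 by 0.49, and both were called higher, whereas OASL, an OAS relative without the synthetase activity that enhances RIG-I signalling, was the largest exception. OASL was at 40.7 and 29.5 FPKM with siNT and at 28.9 and 18.6 FPKM with the RUVBL1 siRNA, a log2 change of -0.56 (SE 0.34, paired adjusted p = 0.000349). IFITM2 was called lower at -0.17 (paired adjusted p = 0.00813), a call that quantile normalization ended (-0.06, adjusted p = 0.303), while IFITM1 and IFITM3 were called higher at 0.63 and 0.33. Not called in the paired fit were ISG20, HERC5, STAT2, IFIT5, RSAD2, ISG15 and IFIT3, between -0.11 and 0.23. RSAD2, which makes the chain terminator ddhCTP, was at 13.0 and 13.9 FPKM with siNT and at 17.4 and 14.2 FPKM with the RUVBL1 siRNA.

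**Figure D2:**
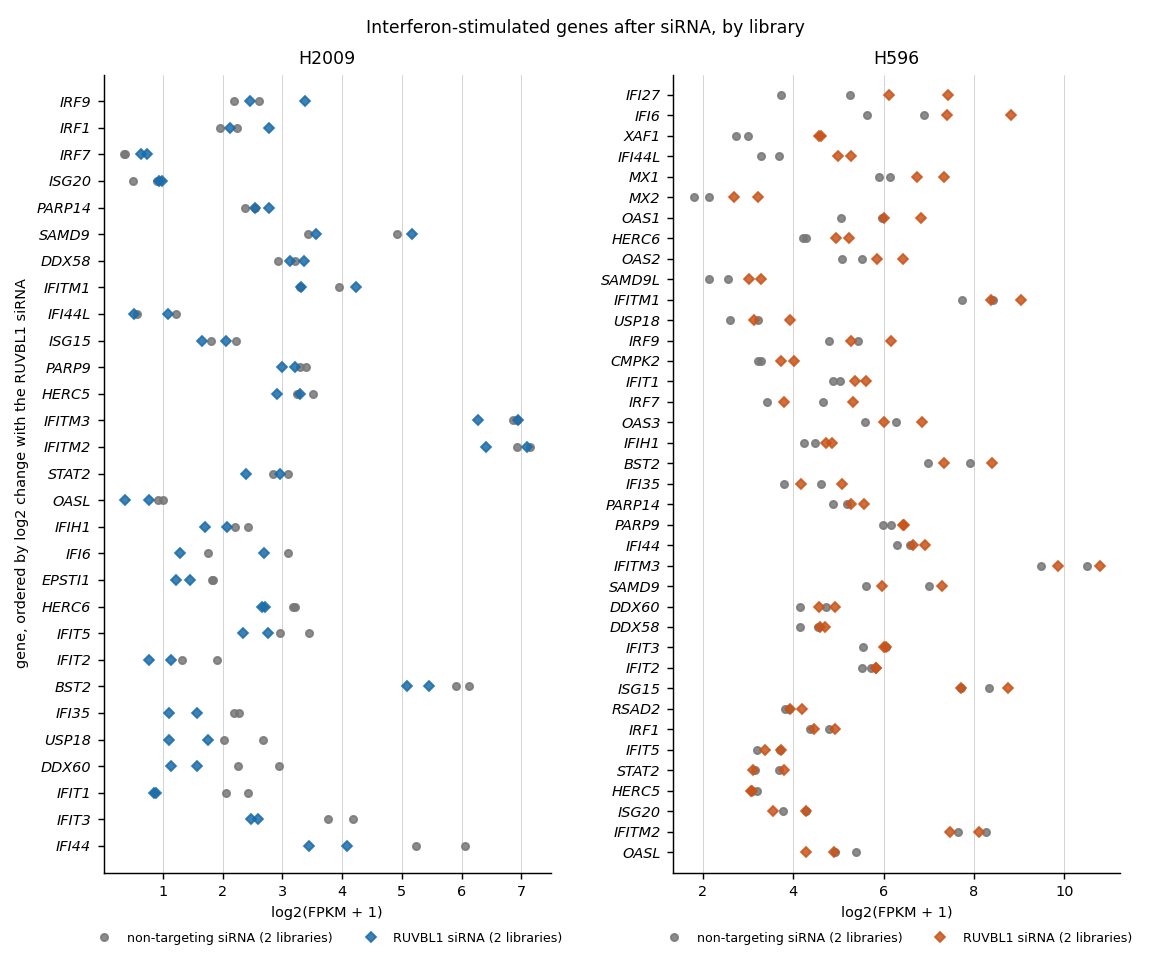
FPKM of each listed gene in every siRNA library on the log2(FPKM + 1) axis, H2009 on the left and H596 on the right, with grey circles for siNT and coloured diamonds for the RUVBL1 siRNA (2 libraries each) and genes ordered by their change. IFI44, IFIT3 and IFIT1 at the bottom of the H2009 panel lie lower with the RUVBL1 siRNA, and IFI27, IFI6 and XAF1 at the top of the H596 panel lie higher.

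Set side by side, 24 members were tested with the siRNA in both lines. Of these, 16 were lower in H2009 and higher in H596, 6 were higher in both, 2 were lower in both and 0 were higher in H2009 and lower in H596. Among all 10323 genes tested in both lines, 17.5% were lower in H2009 and higher in H596. In 13 of the 24 this held within each library number, against 10.5% of all genes. IFIT1 and IFIT2 are among the 13, and in H2009 they reached the minimum level only through the siNT libraries. IFI44 changed by -1.88 in H2009 and 0.35 in H596, IFIT1 by -1.37 and 0.52, and DDX60 by -1.24 and 0.31. IFI27 and XAF1, among the furthest changed in H596, had no row in the H2009 table. The siRNA tables appear to have been normalized separately and the times differed, so the difference between the lines was not tested.

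**Figure D3:**
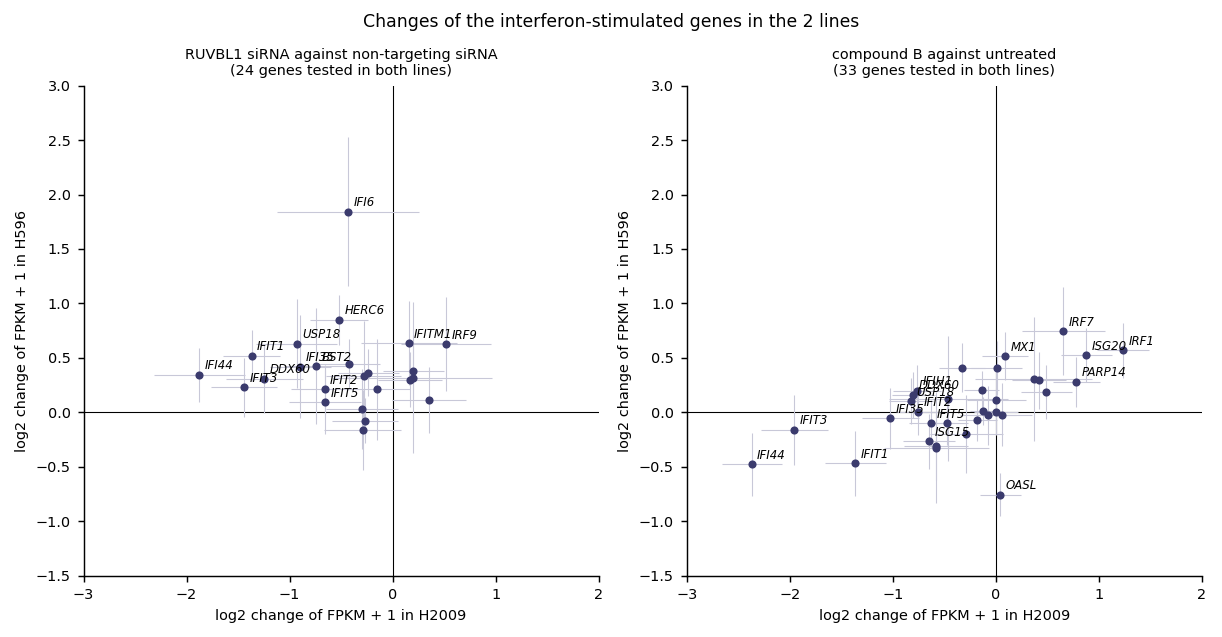
Log2 change of FPKM + 1 in H2009 (horizontal) and in H596 (vertical) for each member tested in both lines, with the RUVBL1 siRNA on the left (24 genes) and compound B on the right (33 genes); bars are SE of the unpaired fit with 2 libraries per group. With the siRNA most points lie left of 0 and above 0, and with compound B IFI44, IFIT3 and IFIT1 lie furthest left while IRF1 lies furthest right.

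With compound B in H2009, the 3 members with the lowest log2 change with the siRNA in that line were also lower than in untreated cells. Of 25 members tested in both comparisons, 16 were lower in both, as were 4390 of 11074 genes. Another 3 were higher in both, and 3 went each opposite way. IFI44 was at 61.5 and 78.3 FPKM in untreated cells and at 10.8 and 14.7 FPKM with compound B, a log2 change of -2.37 (SE 0.29, adjusted p = 0.00153). IFIT3 was at 23.4 and 36.9 FPKM and then at 5.40 and 8.60 FPKM, a change of -1.96 (SE 0.32, adjusted p = 0.00587). IFIT1 was at 7.71 and 9.30 FPKM and then at 1.94 and 3.59 FPKM, a change of -1.36 (SE 0.30, adjusted p = 0.0189). For all 3 the treated and untreated libraries were well apart.

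Smaller decreases passed for IFI35, USP18 and DDX60. IFI35 was at 5.98 and 7.57 FPKM untreated and 2.38 and 3.29 FPKM with compound B, a log2 change of -1.02 (SE 0.28, adjusted p = 0.0439). USP18 was at 4.88 and 3.74 FPKM and then at 2.22 and 1.75 FPKM, a change of -0.83 (SE 0.21, adjusted p = 0.0361). DDX60 was at 4.00 and 5.26 FPKM and then at 1.89 and 2.58 FPKM, a change of -0.80 (SE 0.21, adjusted p = 0.04). IFIT2 and IFIH1, with changes of -0.76 and -0.77, missed the threshold in the unpaired fit (adjusted p = 0.053 and 0.0685) and passed in the paired fit (0.005 and 0.00479).

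IRF1, a transcription factor that both types of interferon induce, went the other way. It was at 6.24 and 4.28 FPKM in untreated cells and at 15.2 and 12.1 FPKM with compound B, a log2 change of 1.24 (SE 0.25, adjusted p = 0.0137). ISG20, an RNA exonuclease, was at 3.84 and 2.83 FPKM and then at 7.64 and 6.24 FPKM, a change of 0.88 (SE 0.25) that missed the threshold (adjusted p = 0.0506, paired 0.00111). The change was 0.78 for PARP14 (adjusted p = 0.0576, paired 0.00188) and 0.49 for OAS3 (paired adjusted p = 0.0252), with OAS3 still near 1 FPKM. IFI27, too low for the test, was at 0.103 and 0.130 FPKM untreated and at 1.26 and 1.27 FPKM with compound B. The transcription factor and these effectors thus lay higher in the same libraries in which the IFIT genes lay lower.

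Of 33 tested members the unpaired fit called 6 lower and 1 higher, where it called 5.02% and 6.36% of all 12781 genes. With quantile normalization alone the counts were 6 and 3. The shares of all genes were not worked out for that setting or for the next. Fitted on the H2009 libraries alone, 2 were called lower (IFI44 and IFIT3); adjusted p was then 0.0674 for IFIT1, 0.0881 for IFI35 and 0.0994 for USP18 and DDX60. Pairing gave 12 lower and 5 higher (19.5% and 18.8% of all genes), and with quantile normalization added 10 and 4 (19.9% and 18.9%). In 17 members all treated libraries lay below the untreated ones and in 6 above, against 28.1% and 26.3% of all genes. The median over the 33 was -0.18, and over the 28 members above the minimum in both groups -0.39, against -0.01 over all genes; CMPK2, MX1, OAS1 and OAS2 were below it in both. Of the calls in the unpaired fit, IFI44 was the one that held without each library in turn. Without library 1 of compound B it was the only call left (IFIT3 adjusted p = 0.0642), and without library 1 or library 2 of the untreated cells 2 members were called lower; without library 2 of the untreated cells IRF1 was not called (adjusted p = 0.0973).

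In H596 no member passed the unpaired test with compound B, and 3 passed with pairing. The 4 members with the largest changes were OASL, IRF7, IRF1 and ISG20. OASL was at 12.3 and 12.7 FPKM untreated and at 8.06 and 6.03 FPKM with compound B, a log2 change of -0.76 (SE 0.20, adjusted p = 0.368, paired 0.0392). IRF7, the master factor of interferon-alpha genes, was at 2.59 and 1.33 FPKM and then at 5.42 and 2.66 FPKM, a change of 0.75 (SE 0.40, paired adjusted p = 0.0373). IRF1 was at 14.3 and 11.3 FPKM and then at 21.9 and 17.1 FPKM, a change of 0.57 (SE 0.25, paired adjusted p = 0.0344). All 3 had treated libraries that did not overlap the untreated ones. ISG20, at 7.22 and 5.77 FPKM untreated and 12.6 and 7.46 FPKM treated, had a change of 0.53 (SE 0.25) and was called in neither fit.

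The unpaired fit called 0 of 33 members and 0% of genes in H596, while 3 members and 735 genes had p under 0.05 before adjustment. Pairing gave 2 higher (IRF7 and IRF1) and 1 lower (OASL), against 1.48% and 0.767% of all genes, and the same counts with quantile normalization added (1.27% and 0.751%). In 6 members the treated libraries lay above the untreated ones and in 3 below, against 12.8% and 15.2%. The member median was 0.01 against -0.03 over all genes. The log2 change was -0.48 for IFI44 (95% interval -1.13 to 0.18), -0.47 for IFIT1 (-1.14 to 0.20) and -0.16 for IFIT3 (-0.89 to 0.56).

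The difference between the lines could be tested for compound B, since both lie in 1 table. In the unpaired fit 0 members passed, where 0.125% of all genes were called with a higher and 0.329% with a lower change in H596; 9 members and 1156 genes had p under 0.05 before adjustment, and the smallest adjusted p among members was 0.102, for IFI44. Pairing gave 5 members with a higher change in H596 and 1 with a lower, against 3.46% and 4.78% of all genes, and with quantile normalization added 6 and 1 (4.91% and 5.3%). Those without that scaling were IFI44 (difference of changes 1.89, SE 0.41, paired adjusted p = 0.000981), IFIT3 (1.79, SE 0.46, 0.000534), USP18 (0.93, SE 0.30, 0.00676), DDX60 (0.96, SE 0.30, 0.0142), IFIH1 (0.96, SE 0.33, 0.0333) and, lower, IRF1 (-0.67, SE 0.35, 0.0318). IRF1 was higher with compound B in both lines, by 1.24 and 0.57.

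Compound C changed none of these genes by the test. Neither fit called any of the 33 members in H2009 or H596, where the unpaired fit called 0% of genes higher and 0.00782% lower in H2009 and 0% in H596; p was under 0.05 before adjustment for 0 members and 9 genes in H2009 and for 0 members and 20 genes in H596. Libraries were apart from the untreated ones in 2 members above and 3 below in H2009 (4.26% and 2.53% of all genes), and in 1 above and 0 below in H596 (3.9% and 7.37%). In H2009 with compound C, IFI44 was at 47.1 and 82.0 FPKM, IFIT3 at 19.9 and 31.6 FPKM, and IRF1 at 5.57 and 4.03 FPKM, and each overlapped its untreated values. The log2 change was -0.16 for IFI44 (95% interval -0.81 to 0.50), -0.22 for IFIT3 (-0.94 to 0.51), -0.13 for IFIT1 (-0.79 to 0.54) and -0.10 for IRF1 (-0.67 to 0.46). In H596 it was -0.09 for IFI44 (-0.74 to 0.57), 0.04 for OASL (-0.40 to 0.48) and 0.08 for IRF1 (-0.48 to 0.64). The member medians were -0.04 and 0.04.

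At the same dose and time the compounds could be compared directly in each line, in 2 comparisons. In H2009 the unpaired fit called 5 members lower with compound B than with compound C and 1 higher, where it called 5.28% and 6.16% of all genes. The log2 difference was -2.21 for IFI44 (SE 0.29, adjusted p = 0.00219), -1.74 for IFIT3 (SE 0.32, 0.0099), -1.24 for IFIT1 (SE 0.30, 0.0285), -1.02 for IFI35 (SE 0.28, 0.0442), -0.89 for USP18 (SE 0.21, 0.028) and 1.34 for IRF1 (SE 0.25, 0.0102). Pairing gave 12 lower and 6 higher (20.6% and 18.5% of all genes), and with quantile normalization added 9 and 5 (19.7% and 18.7%). By libraries alone 17 were lower and 8 higher without overlap, against 27.2% and 24.8%. Leaving out library 1 of compound B left 1 member lower and 0 higher, leaving out library 2 of compound C left 2 and 0, and leaving out library 2 of compound B left 3 and 1. In H596 the unpaired fit called 0 members (0.00782% of genes higher, 0% lower), while 1 member and 599 genes had p under 0.05 before adjustment. Pairing there gave OASL lower (-0.79, SE 0.20, adjusted p = 0.0387) and 0 higher, against 0.423% and 1.13% of genes, as it did with quantile normalization added (0.462% and 1%). Libraries were apart in 3 members below and 5 above, against 13.3% and 13.6%. In that line IFI44 differed by -0.39 (95% interval -1.05 to 0.26) and IRF1 by 0.49 (-0.08 to 1.05). These comparisons share the compound B libraries with those against untreated cells.

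**Figure D4:**
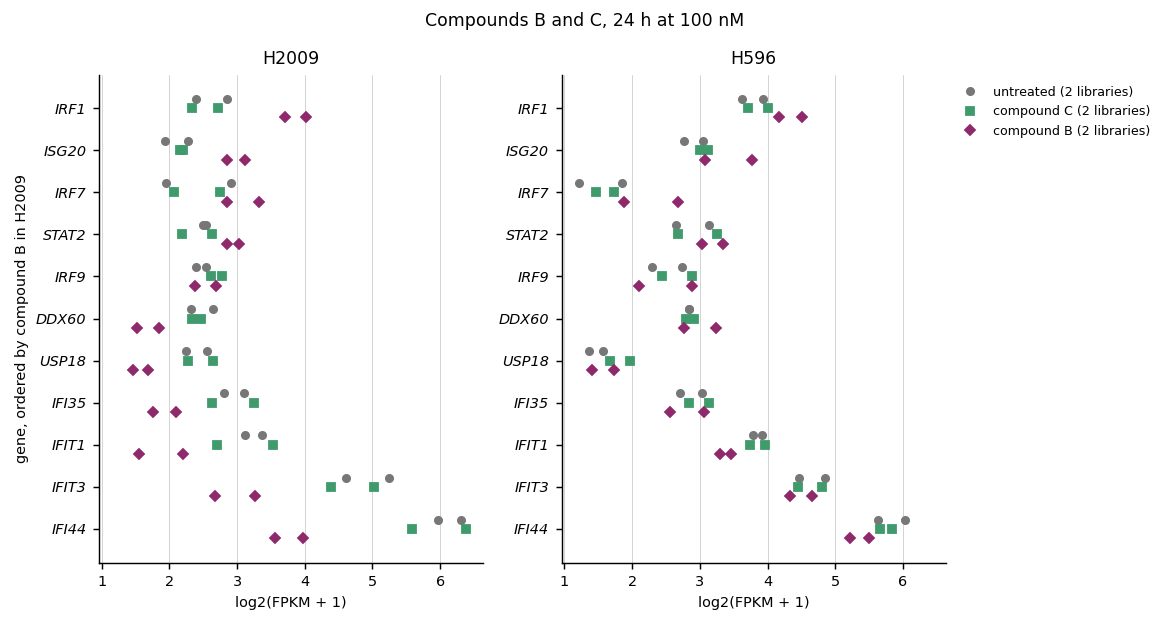
FPKM on the log2(FPKM + 1) axis of the 8 members with the largest change with compound B in H2009 and of IRF7, IRF9 and STAT2, in H2009 (left) and H596 (right), with grey circles for untreated, green squares for compound C and purple diamonds for compound B (2 libraries each). In H2009 the compound B points of IFI44, IFIT3 and IFIT1 lie below all others and those of IRF1 above, while compound C overlaps the untreated points of these 4 genes.

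The transcription factors of the list differed among themselves. IRF9, the DNA-binding part of ISGF3, was at 5.14 and 3.58 FPKM with siNT and at 9.46 and 4.50 FPKM with the RUVBL1 siRNA in H2009. In H596 it was at 42.2 and 26.6 FPKM with siNT and at 71.2 and 38.2 FPKM with the RUVBL1 siRNA, a log2 change of 0.62 (SE 0.43, paired adjusted p = 0.000485). With compound B the change of IRF9 was 0.06 (SE 0.29) in H2009 and -0.02 (SE 0.29) in H596, and it stood at 5.42 and 4.20 FPKM and at 6.37 and 3.29 FPKM.

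IRF7 had a change of 0.51 (SE 0.71, paired adjusted p = 0.00169) with the siRNA in H596, from 24.2 and 9.78 FPKM to 38.9 and 12.9 FPKM. In H2009 IRF7 was at 0.283 and 0.278 FPKM with siNT and at 0.673 and 0.558 FPKM with the RUVBL1 siRNA, too low for the test. With compound B in H2009 it was at 9.06 and 6.18 FPKM against 6.51 and 2.88 FPKM untreated, a change of 0.66 (SE 0.40, paired adjusted p = 0.00732). In each of these H596 siRNA and H2009 compound groups library 1 stood above library 2, and the groups overlapped.

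IRF1 with the siRNA was at 5.88 and 3.36 FPKM in H2009, against 3.74 and 2.89 FPKM with siNT, a log2 change of 0.35 (SE 0.36, paired adjusted p = 0.0767). In H596 it was at 29.4 and 21.1 FPKM against 26.8 and 19.6 FPKM, a change of 0.11 (SE 0.30, paired adjusted p = 0.0407). STAT2 was at 6.76 and 4.24 FPKM with the RUVBL1 siRNA and 7.50 and 6.21 FPKM with siNT in H2009, and at 12.9 and 7.62 FPKM and 11.9 and 7.87 FPKM in H596. Its change was -0.30 (SE 0.35) and 0.03 (SE 0.37) with the siRNA and 0.42 (SE 0.26) and 0.29 (SE 0.26) with compound B in H2009 and H596, and passed in neither fit. With compound B it was at 7.12 and 6.22 FPKM in H2009, from 4.67 and 4.79, and at 9.13 and 7.16 FPKM in H596, from 7.77 and 5.28.

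Other genes of the pathway came from lists drawn up with earlier results of these data known. With the siRNA in H2009, of 33 further interferon-induced genes tested, pairing gave 16 lower and 5 higher (against 27% and 15.4% of all genes) and the unpaired test 0. Among tested genes of the lists the largest changes were in SAMHD1, a dNTP hydrolase that restricts retroviruses (-1.19, SE 0.28, paired adjusted p = 0.000201), TRIM14 (-1.13, SE 0.75, 0.000403), TRIM5 (-0.94, SE 0.27, 0.00119), TRIM25, the ligase that activates RIG-I (-0.90, SE 0.43, 0.000763), and IRF2 (-0.75, SE 0.29, 0.00267). Of 5 receptors 1 was called higher, of 5 JAK-STAT transducers 2 higher, and of 15 sensing genes 2 higher and 3 lower, so the sensing counts were not above the shares of all genes. IFNE, the one interferon ligand listed, was too low for the test, at 0.0937 and 0.178 FPKM with siNT and 0.937 and 1.63 FPKM with the RUVBL1 siRNA. In H596, of 48 further interferon-induced genes 33 were called higher and 1 lower with pairing (against 19.8% and 26.6% of all genes) and 0 without it. They included LAMP3 (1.13, SE 0.25, paired adjusted p = 0.000182), the chemokines CXCL10 (1.00, SE 0.23, 0.000758) and CXCL11 (0.70, SE 0.51, 0.000602), HLA-B (0.95, SE 0.53, 3.99e-05) and TRIM22 (0.88, SE 0.34, 5.09e-05). Against the same shares of all genes, pairing there gave 4 of 5 receptors higher and 1 lower, and 4 of 5 JAK-STAT transducers higher. Of 16 sensing genes 6 were higher and 1 lower. Of 13 negative regulators 5 were higher and 1 lower, and in H2009 0 of 10 were higher and 2 lower. IFNE in H596 was at 0.750 and 1.72 FPKM with siNT and 1.45 and 2.39 FPKM with the RUVBL1 siRNA. Its log2 change was 0.40, called higher with pairing only, and the groups overlapped. HLA genes have near-identical relatives, so their values are uncertain.

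With compound B in H2009, of 46 further interferon-induced genes 4 were called higher and 1 lower (against 6.36% and 5.02% of all genes), and with pairing 7 and 8 (against 18.8% and 19.5%), shares near those of all genes. HELZ2, a helicase, rose from a mean of 1.57 to 7.29 FPKM (log2 change 1.69, SE 0.32, adjusted p = 0.0108), HLA-E by 1.26 (SE 0.21, 0.00589), APOL2 by 1.21 (SE 0.21, 0.00737) and HLA-B by 1.18 (SE 0.31, 0.04). SOCS1, which inhibits JAK kinases, was at a mean of 3.06 FPKM against 0.718 FPKM untreated; it reached the minimum level only through the compound B libraries of H2009, so its test is not given. Of 12 interferon ligand names 1 had a row, IFNE, which was at 0.121 and 0.0344 FPKM untreated and at 0.855 and 1.32 FPKM with compound B in H2009 (log2 change 0.94, SE 0.19, adjusted p = 0.014). In H2009 IFNE was thus near the minimum level with compound B and below it untreated. It was tested because its level in H596 passed the filter, and it was chosen after its values were seen. In H596 HLA-E was the one pathway gene called, and with pairing only (0.64, SE 0.21, adjusted p = 0.0391), and with compound C 0 pathway genes were called in either line by either fit.

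Set by the presence of an ISRE core in the 250-base window, the members differed as follows. With the siRNA in H2009, 12 of 15 tested members with a match were lower, with a median log2 change of -0.43, against 4 of 7 without one, with a median of -0.24. In H596, 16 of 18 with a match and 13 of 13 without one were higher, with medians of 0.36 and 0.62. With compound B in H2009, 13 of 17 with a match were lower, with a median of -0.47, against 4 of 10 without one, with a median of 0.01. In H596 with compound B, 8 of 17 with a match and 7 of 10 without one were higher, with medians of -0.08 and 0.25. Over all genes, 42.4% and 47.2% were higher with the siRNA in H2009 and H596, and 48.9% and 44.6% with compound B. These counts are descriptions of promoter windows on another build than that of the values.

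Levels in the siRNA controls can be set beside those of untreated cells only across tables that appear to have been normalized separately, so no test was made. In H596, 34 of 35 members were higher in both siNT libraries than in both untreated libraries, where this held for 25.7% of 11893 shared genes and the reverse for 21%. The median log2 difference was 1.37 for the members and 0.06 for all genes. Mean MX1 was 2.45 FPKM untreated, 64.3 FPKM with siNT and 133 FPKM with the RUVBL1 siRNA. IFI6 went from 3.08 to 83.8 and 311 FPKM, and IFI27 from 0.460 to 24.8 and 120 FPKM. SAMD9 was the one member whose libraries overlapped.

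In H2009 the same setting gave another order. Of 28 members 4 were higher with siNT and 13 lower, where 22.5% and 26.5% of 11541 genes were, and the median was -0.30 against -0.01 over all genes. Mean ISG15 was 74.5 FPKM in untreated H2009, 3.08 FPKM with siNT and 2.68 FPKM with the RUVBL1 siRNA. IRF7 was 4.69 FPKM untreated and 0.281 FPKM with siNT. Transfection differs between these tables, plating, time and normalization may differ too, and their parts cannot be told apart.

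**Figure D5:**
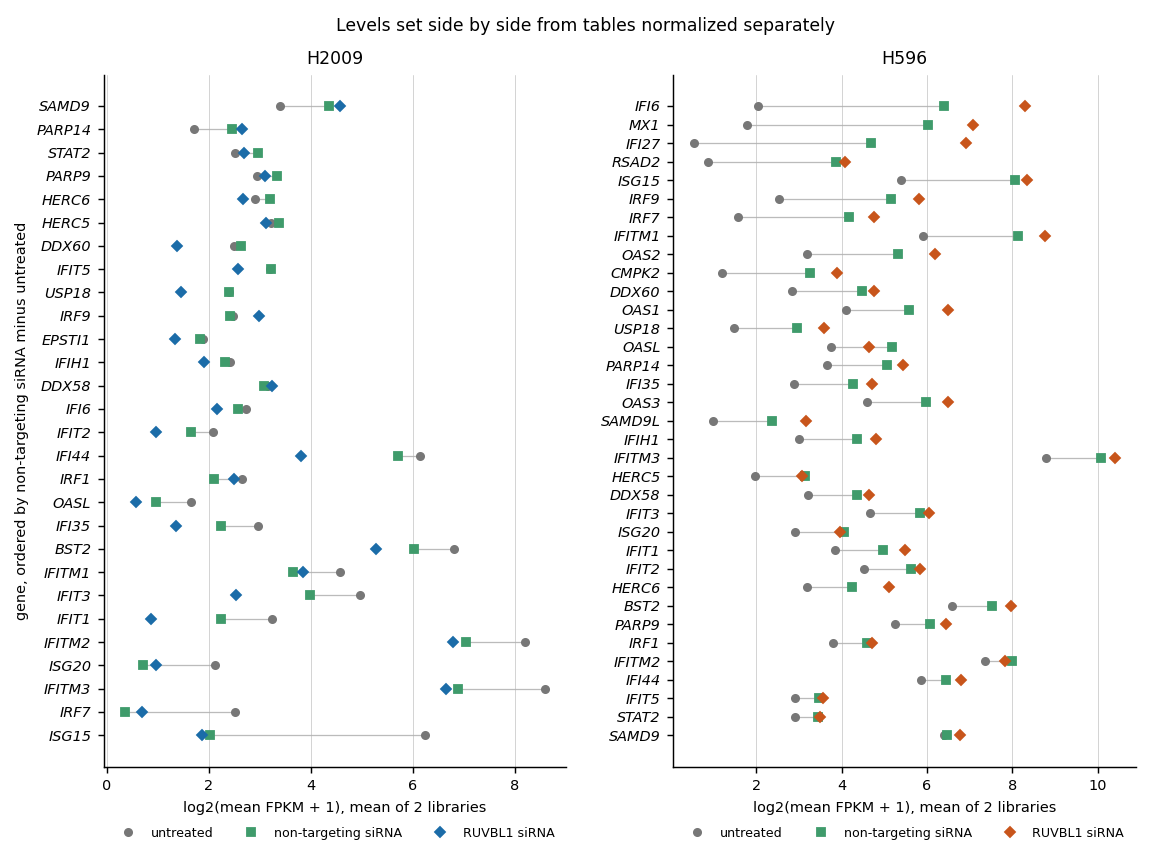
Mean level on the log2(FPKM + 1) axis (mean of 2 libraries) in untreated cells (grey circles), with siNT (green squares) and with the RUVBL1 siRNA (coloured diamonds) for members listed in both tables of a line, ordered by siNT minus untreated. The values come from tables that appear to have been normalized separately. In H596 every member shown has siNT to the right of untreated, most by more than in H2009, where ISG15 and IRF7 lie far to the left with siNT.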

How the data were processed

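RNA was sequenced from poly(A)-selected stranded libraries; 20 libraries in 10 groups were used, and the 8 cDNA libraries of the series were not used here. Per the submitters' processing notes, CASAVA 1.8.2, TopHat2 2.0.12, Cufflinks 2.2.1 and hg19 were used, and the values the authors deposited are FPKM. Use of strand in counting is not stated, and FPKM without counts leaves depth, and so counting precision, unknown. The 19 names turned into dates in the values of the siRNA in H2009 were left out.

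Log2(FPKM + 1) was fitted per table with limma 3.58.1 in R 4.3.3, with Benjamini-Hochberg adjustment at 0.05 over all genes of mean FPKM at least 1 (unpaired; the paired fit adds the library number as a term); the method was tested on simulated data. Differences between library 1 and library 2 correlated in all 45 pairs of groups (r from 0.456 to 0.962); what the numbers mark is not labelled. Alternatives were the replicate block, quantile normalization, pseudocount 0.1, no filter, 1 line's libraries alone, and each library left out. Per-library values are given for the 8 members with the largest change in each siRNA comparison and with compound B in H2009, for 4 in H596, and for the transcription factors; up to 5 pathway genes per comparison are named likewise. Per-library values printed for untreated cells, RSAD2, IFI27 with compound B and IFNE fall outside this rule and were chosen after their values were seen. The members and lists were chosen with earlier results of these data known. Promoters were searched on both strands in RefSeq sequence, where DDX58 was matched as RIGI.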

Additional observations from a re-analysis of the deposited data

Results flagged for a closer look

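With the RUVBL1 siRNA, 13 of these genes had both libraries of H2009 below siNT and both of H596 above it, number by number, where this held for 10.5% of the 10323 genes tested in both lines. The difference between the lines was not tested, because the tables appear to have been normalized separately and the times differed. Of the 13, IFIT1 and IFIT2 reached the minimum level in H2009 only through the siNT libraries. Among RNA-binding IFIT genes, the log2 change in H2009 and H596 was -1.37 and 0.52 for IFIT1, -0.66 and 0.21 for IFIT2, -1.44 and 0.23 for IFIT3, and -0.66 and 0.09 for IFIT5. Among RNA sensors it was -0.42 and 0.44 for IFIH1 and -1.24 and 0.31 for DDX60. For USP18 it was -0.93 and 0.63, for HERC6 -0.52 and 0.85, for PARP9 -0.24 and 0.36 and for BST2 -0.74 and 0.42. For IFI6 it was -0.43 and 1.84, for IFI35 -0.90 and 0.42 and for IFI44 -1.88 and 0.35.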

How the results depend on the processing

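With the replicate block, and with the replicate block and quantile normalization together, the counts of members called were 13 lower and 1 higher, then 13 and 5, for the siRNA in H2009, and 29 higher and 2 lower, then 32 and 1, for the siRNA in H596. For compound B they were 12 lower and 5 higher, then 10 and 4, in H2009, and 2 higher and 1 lower in H596 in both. Against compound C they were 12 lower and 6 higher, then 9 and 5, in H2009, and 1 lower in H596 in both. The difference of the lines gave 5 and 1, then 6 and 1, and the untreated lines gave 7, then 10, lower in H596. For compound B in H2009, members called higher were 3 with pseudocount 0.1, 2 with no filter and 3 with quantile normalization, and members called lower were 2 with that line's libraries alone. Against compound C these were 2, 2, 3 and 2. For the replicate block settings the shares of all genes stand with each comparison in the Results. No such shares were worked out for the other settings or for leaving out a library. Those counts therefore show only how far the calls moved. Leaving out each library in turn gave 1 to 4 lower and 0 to 1 higher for compound B in H2009, the same ranges against compound C, 0 to 1 higher for the siRNA in H596, and 11 to 14 higher and 3 to 5 lower for the untreated lines. Signs reversed for transcription factors that passed no unpaired test there. With the siRNA in H596, leaving out 1 library gave -0.11 to 0.34 for IRF1, -0.25 to 1.27 for IRF7 and -0.31 to 0.37 for STAT2, negative without library 1 of the RUVBL1 siRNA and without library 2 of siNT. IRF9 with compound B ranged from -0.090 to 0.22 in H2009 and from -0.41 to 0.37 in H596, and was at -0.025 in H2009 with quantile normalization. The cause was not tested. FPKM gives no counts, so depth sets no stated limit here.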
